A study of Mus musculus with 8 samples.

Results

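Open chromatin in growing (anagen) hair follicles of mouse back skin was compared with that of resting (telogen) follicles at the sites that were open in all 4 sorted populations of the series. Peaks that overlapped by at least 1 bp across the 4 lists were merged into 114956 sites, and 31420 of them (27.3%) held a peak in every list. These common sites were chosen by presence alone, so none of them is specific to a stage, and what was compared is how strongly the same site was open. The study used ATAC-seq, in which a transposase inserts adapters into accessible DNA, on 8 samples, 2 per population.

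The anagen populations were taken at postnatal day 30. Basal TACs (transient amplifying cells, the fast-dividing progeny of the stem cells that surround the dermal papilla) were sorted from Lgr5-eGFP-ires-CreER mice as GFP-negative, CD34-negative, integrin β1-high, P-cadherin-positive and SCA1-negative cells. Suprabasal TACs, the progeny further up the hair bulb, came from K14-H2BGFP mice, in which the keratin 14 promoter drives a histone-GFP fusion, and were GFP-low, integrin α6-negative and CD34-negative. The telogen populations were taken at postnatal day 55 from Lgr5-eGFP-ires-CreER mice, in which GFP marks cells that transcribe Lgr5. Bulge stem cells were GFP-positive, CD34-positive and positive for integrins α6 and β1, and hair germ cells differed from them in the gate by being CD34-negative. Sex was mixed in every sample. Age and stage coincide in this design and cannot be told apart, and only the suprabasal TACs lack the Lgr5 allele.

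The hair follicle cycles between rest and growth. In telogen, quiescent stem cells sit in the bulge and primed cells in the hair germ below it. WNT signals from the dermal papilla, together with inhibitors of BMP signalling, start the next anagen, in which matrix TACs divide and become the inner root sheath and the hair shaft. BMP signalling keeps bulge cells at rest and later drives hair differentiation, and sonic hedgehog from the TACs feeds back on the stem cells.

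The promoters of 5 genes with known roles in the follicle show the contrast and were chosen after their values were seen. Each sequence is the 250 bases upstream of a RefSeq transcript start (GRCm38.p6, the same build as mm10), read 5′ to 3′ on the gene's strand. Capitals mark matches, on either strand, to the 10 short motifs described further on. The Bmp4 and Krt25 promoters lie in sites that were higher in anagen, and the Grem1, Foxc1 and Col17a1 promoters in sites that were lower.
Bmp4, chr14:46390670-46390919, minus strand: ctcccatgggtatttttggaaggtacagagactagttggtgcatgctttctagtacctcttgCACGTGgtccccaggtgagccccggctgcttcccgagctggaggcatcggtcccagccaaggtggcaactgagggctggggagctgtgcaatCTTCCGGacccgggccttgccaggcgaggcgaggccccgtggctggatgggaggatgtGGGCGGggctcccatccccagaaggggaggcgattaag
Krt25, chr11:99322952-99323201, minus strand: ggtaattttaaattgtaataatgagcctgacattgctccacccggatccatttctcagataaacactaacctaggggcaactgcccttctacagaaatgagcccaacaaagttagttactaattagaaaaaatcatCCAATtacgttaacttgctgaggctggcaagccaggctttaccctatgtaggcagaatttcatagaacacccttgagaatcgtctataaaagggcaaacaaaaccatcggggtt
Grem1, chr2:113758649-113758898, minus strand: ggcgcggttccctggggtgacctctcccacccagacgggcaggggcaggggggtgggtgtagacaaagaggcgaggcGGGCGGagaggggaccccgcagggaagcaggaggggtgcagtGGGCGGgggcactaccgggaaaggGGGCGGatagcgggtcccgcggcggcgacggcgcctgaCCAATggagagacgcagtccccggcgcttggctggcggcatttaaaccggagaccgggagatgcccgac
Foxc1, chr13:31806396-31806645, plus strand: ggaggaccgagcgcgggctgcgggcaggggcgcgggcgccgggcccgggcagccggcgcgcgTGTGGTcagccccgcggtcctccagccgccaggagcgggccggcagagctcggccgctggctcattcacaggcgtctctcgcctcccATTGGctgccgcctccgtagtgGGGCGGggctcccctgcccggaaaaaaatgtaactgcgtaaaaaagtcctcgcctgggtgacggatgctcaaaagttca
Col17a1, chr19:47692043-47692292, minus strand: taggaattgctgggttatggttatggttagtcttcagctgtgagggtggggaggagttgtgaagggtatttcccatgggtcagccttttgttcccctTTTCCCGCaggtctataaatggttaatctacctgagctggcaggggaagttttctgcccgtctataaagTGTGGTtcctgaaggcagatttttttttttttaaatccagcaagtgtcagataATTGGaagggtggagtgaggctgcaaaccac

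Each value below is the highest pileup of a list in the site, that is the number of fragments that cover the summit, scaled to 1000000 fragments of the list's header (FPM). These headers give 30824845 fragments for basal TACs, 47852893 for suprabasal TACs, 24065469 for the bulge and 11053351 for the hair germ. Each list was called by the authors on both samples of a population pooled, so there is 1 value per population and no spread between replicates. The lists of a stage are different cell populations and not replicates, and 2 lists against 2 cannot give a permutation p below 0.333, so no test was run and no p-value is given. A standard error (SE) beside a difference covers the counting of fragments only. Fragment length differed between the lists, at 256 and 187 bp in basal and suprabasal TACs against 224 and 233 bp in the bulge and the hair germ, and its part in the results was not tested. Within a population, a lower signal in every cell and fewer cells with the site open cannot be told apart.

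At a given site the anagen lists were mostly lower than the telogen lists. The median level over the common sites was 3.11 and 1.88 FPM in basal and suprabasal TACs, against 4.16 and 4.25 FPM in bulge and hair germ. The difference of the mean log2 values (anagen minus telogen) had a median of −0.84, a 1.79-fold lower level in anagen, and its 5th and 95th percentiles were −2.21 and 0.75. Both anagen values lay below both telogen values at 20298 sites (64.6%) and above them at 1941 sites (6.18%), and the pairs overlapped at the remaining 9181 sites. With a difference of at least 2-fold added, 12149 sites (38.7%) were called lower and 888 (2.83%) higher.

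This lower level ran through the whole lists, and scaling decides how it is read. FPM scales by all fragments of a list, inside peaks or not, and the share of fragments inside peaks was not measured here. When each list was centred on its own median over the common sites, which adds 0.80 to every log2 difference, the median difference was −0.04 and its 5th and 95th percentiles were −1.41 and 1.55. On this scale 8402 sites (26.7%) separated with anagen higher and 10165 (32.4%) with anagen lower, and the calls at 2-fold were 3605 higher (11.5%) and 2976 lower (9.47%). Sites called higher made up 54.8% of the calls on centred values against 6.81% of the calls in FPM.

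A site is therefore described below as higher or lower in anagen only if it was called on both scales. That left 888 sites higher in anagen (2.83%) and 2976 sites lower (9.47%), shown in colour in the plot of anagen against telogen values. This rule is stricter for higher sites, because centring adds 0.80 to every difference. The FPM cutoff alone set the higher count, and the centred cutoff alone set the lower count. Counts of higher and lower sites are therefore not held to the same cutoff. Every named difference is a log2 difference in FPM, beside the general shift of −0.84. Under the caller's fold enrichment over local background, 248 sites were called higher and 1825 lower, without centring. In FPM the count of higher sites was 2222 without the suprabasal TAC list and 1614 without the hair germ list, and that of lower sites was 7402 without the suprabasal TAC list.

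**Figure D1:**
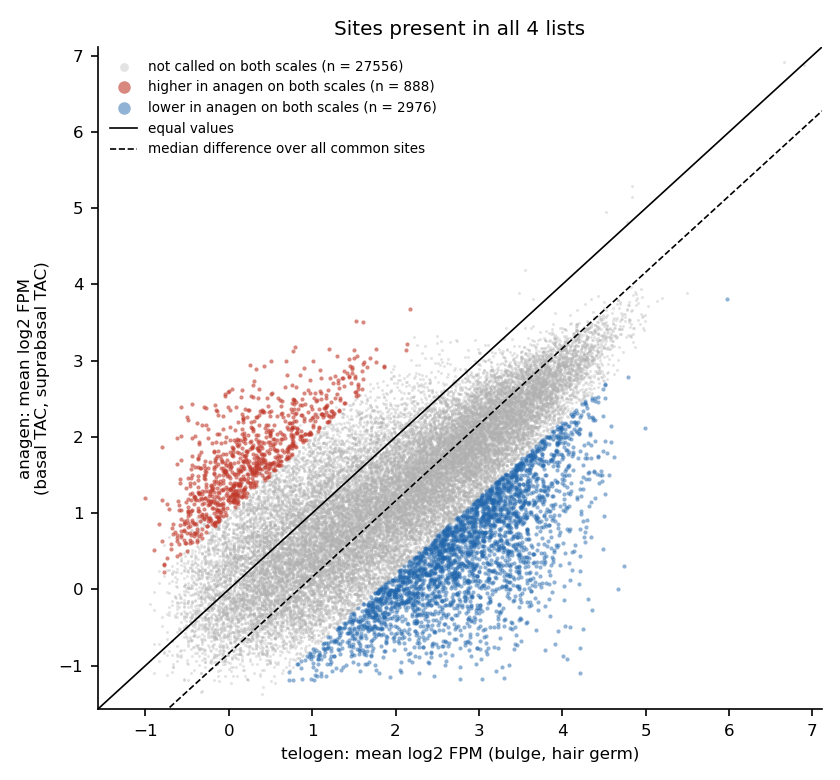
Each point is 1 of the 31420 common sites, with the mean log2 FPM of basal and suprabasal TACs on the vertical axis and that of bulge and hair germ on the horizontal axis. The cloud lies along the dashed line, 0.84 below equal values, and the 888 sites higher in anagen sit at low telogen values while the 2976 lower sites reach the highest ones.

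The anagen lists differed more from each other than the telogen lists did. On centred values, the median gap between basal and suprabasal TACs was 0.44 on the log2 scale, and that between bulge and hair germ was 0.26. The median size of the difference between stages was 0.49, and it exceeded both gaps at 14199 sites (45.2%). Spearman's rank correlation over the 31420 sites, a description over points that share libraries, was 0.71 between the anagen lists and 0.93 between the telogen lists.

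Among the 227 of the 888 higher sites with a pileup of at least 20 in each list, the largest differences lay mostly inside genes. Sites with fewer fragments reached larger ones, such as those inside Gli2 and Notch2 described with their pathways. The nearest gene within 100 kb, 0 kb meaning inside it, only locates a site and is not shown to be its target. Inside Samd4, which encodes an RNA-binding translational repressor, the site at chr14:46923895-46926057 had 7.92 and 6.90 FPM in basal and suprabasal TACs, against 0.831 and 1.90 in the bulge and the hair germ. The anagen values were close together and the telogen values were both low, a difference of 2.56 (SE 0.23).

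Inside Bckdha, a subunit of the enzyme that breaks down branched-chain amino acids, a site had 7.72 and 7.59 FPM in basal and suprabasal TACs, against 0.831 and 2.17 in bulge and hair germ. A site inside Trio, a guanine nucleotide exchange factor, had 9.67 and 7.96 in the same TAC lists, against 0.914 and 3.17 in the telogen lists. The bulge was the lowest list at each of these sites.

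A site 11.2 kb from Stc1, the gene of the secreted hormone stanniocalcin 1, had 9.83 and 6.48 FPM in basal and suprabasal TACs, against 0.873 and 2.99 in bulge and hair germ. Inside Tspear, a gene known in humans for its part in tooth and hair development, a site had 11.3 and 6.98 in the TAC lists, against 1.83 and 2.90 in the telogen lists. The other sites among the 12 with the largest differences lay at Prdm10, Camk2g, Plcxd2, Usp6nl, Zbtb38 and Abcd3 and at 1 place with no gene within 100 kb, and the 12 differences ran down to 1.95. Under the caller's fold enrichment over local background, 11 of these 12 sites kept their direction but not a separated 2-fold difference (0.30 at Camk2g, 0.09 at Plcxd2 and 0.96 at Trio, for example).

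Among the 2723 of the 2976 lower sites with a pileup of at least 20 in each list, the largest differences were larger in size. A pileup of 20 is a higher FPM in the telogen lists, which have fewer fragments, so the rule bears more on higher sites. It kept 227 of the 888 higher sites. The differences also carry the general shift of −0.84. After centring, the largest named ones were 3.35 at Samd4 and −4.17 at Snx4. At chr16:33325857-33326850, 26.3 kb from the sorting nexin gene Snx4, the level in FPM was 0.649 and 0.439 in basal and suprabasal TACs, against 18.6 and 14.9 in bulge and hair germ. The difference of −4.97 (SE 0.23) is a 31.2-fold lower level in anagen. The TAC values rest on 20 and 21 fragments, and the telogen values on 448 and 165.

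Inside Gmds, an enzyme of GDP-fucose synthesis, a site had 1.17 and 0.418 FPM in basal and suprabasal TACs, against 20.1 and 18.0 in bulge and hair germ. A site 69.2 kb from Adgrg6, an adhesion G-protein-coupled receptor gene, had 1.95 and 0.522 in the TAC lists, against 23.5 and 27.3 in the telogen lists. Inside Hdc, the gene of the histamine-forming enzyme, a site had 0.876 and 0.711 in the TAC lists, against 15.6 and 13.3 in the telogen lists. At each of them the telogen values were within 1.5-fold of each other and more than 10-fold above both TAC values.

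Zfp365, Fhit, P3h2, Hk1, Gprin2, Col6a1 and Cd44 and a place with no gene within 100 kb made up the rest of the 12 lowest, with differences up to −4.18. All 12 kept a separated 2-fold difference under fold enrichment. The plot of the 24 sites shows the values of every list.

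**Figure D2:**
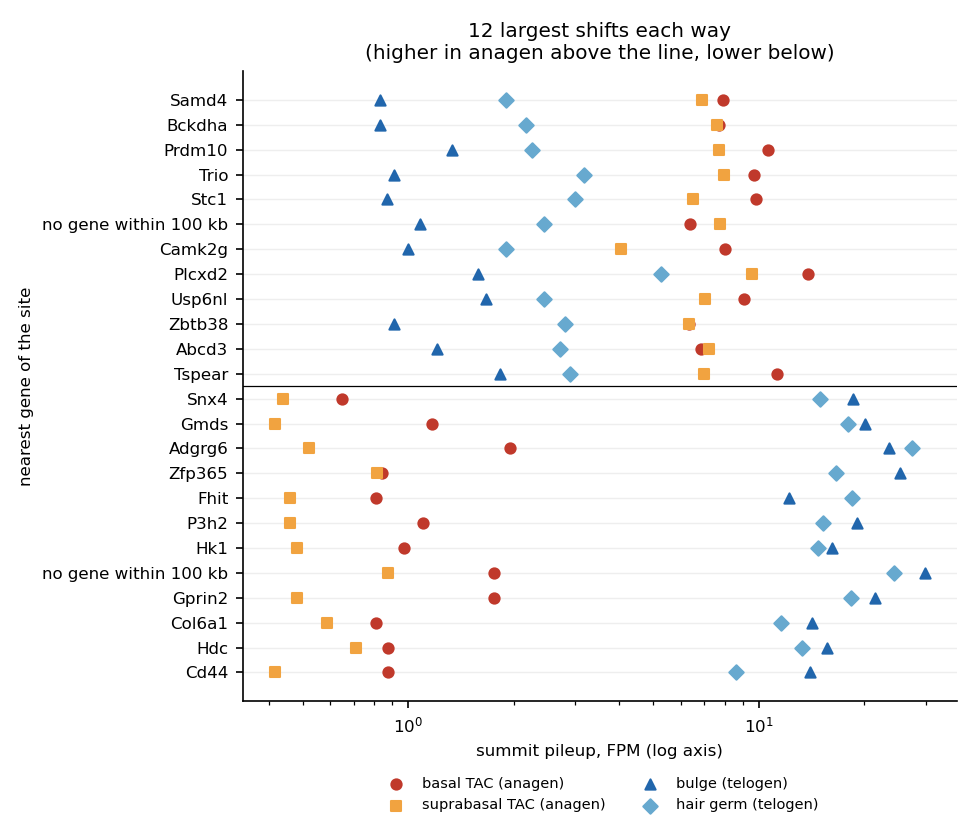
Summit pileup in FPM (log axis) in the 4 lists at the 12 sites with the largest and the 12 with the most negative difference, among those called on both scales with a pileup of at least 20 in each list, 1 per gene. Both TAC values lie right of both telogen values in the upper rows and left of them in the lower rows, where the telogen values exceed 8 and the TAC values stay below 2.

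Calls in 1 direction gathered at some genes. Of 3320 genes with at least 3 common sites, 343 had more sites higher than lower in anagen and 1169 had more lower than higher. These counts carry the stricter rule for higher sites. The genes named here have long spans, with a median of 189 kb against 58.0 kb for all 3320, and a longer gene holds more sites.

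Cux1, a homeodomain transcription factor of the inner root sheath lineage, and Trio had the most sites higher in anagen. At Cux1, 4 of 8 common sites were higher and none lower, and all 8 had a centred difference above 0. In FPM, some of the sites not called were below telogen, with differences of −0.74, −0.78 and −0.54. The strongest, chr5:136531077-136532350, had 5.19 and 1.96 FPM in basal and suprabasal TACs, against 0.623 and 1.27 in bulge and hair germ. Its telogen values rest on 15 and 14 fragments (SE 0.28). At Trio, 4 of 15 sites were higher, while the site at the gene end (chr15:28024301-28026590) had 7.72 and 5.41 in the TAC lists, against 14.4 and 14.8 in the telogen lists and was not called. Most of the higher sites of Cux1 and Trio had a pileup under 20 in a telogen list.

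Among the other genes with net higher sites, Rassf6 (a Ras-association domain protein), Entpd6 (a nucleotidase), Rap1gap2 (a Rap GTPase-activating protein), Gtf2ird1 (a transcription factor), Dtnb (dystrobrevin beta) and Gse1 each had 3, and Prr5l and Kif26a had 2. The median difference was 1.62 over the 5 sites of Rassf6 and 0.27 over the 19 sites of Gse1.

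Nfatc1, a transcription factor that holds bulge stem cells at rest, had 6 of 8 common sites lower in anagen. At chr18:80582995-80584018, 22.2 kb from the gene, the level in FPM was 1.07 and 2.63 in basal and suprabasal TACs, against 19.7 and 12.5 in bulge and hair germ. At its gene end it was 1.75 and 1.27 in the TAC lists, against 10.1 and 8.05 in the telogen lists. The other 2 sites were also below telogen in FPM, with centred differences of 0.17 and −0.84.

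Ednra, the endothelin receptor type A gene, also had 6 lower sites, of 9. The lowest, chr8:77754517-77755858, had 0.519 and 0.418 FPM in basal and suprabasal TACs, against 19.3 and 17.8 in bulge and hair germ. With a difference of −5.32 it was lower than any of the 12 above and was outside their rule because of a pileup under 20 in basal TACs. Cd44, a hyaluronan receptor, had 6 of 15 sites lower, among them one inside the gene with 1.69 and 0.982 in the TAC lists, against 16.9 and 11.3 in the telogen lists.

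Trabd2b, a membrane protease that inactivates WNT ligands, had 8 of 17 sites lower and none higher. Its site at chr4:114611281-114612539 had 5.81 and 0.940 FPM in basal and suprabasal TACs, against 20.7 and 16.8 in bulge and hair germ. Rad51b, a recombination repair gene, had 8 of 30 lower and 1 higher. Gcnt2 (a glycosyltransferase), Itprid2, Bach2 (a transcriptional repressor) and Nhsl1 had 6 each, and Aopep (an aminopeptidase) had 5.

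**Figure D3:**
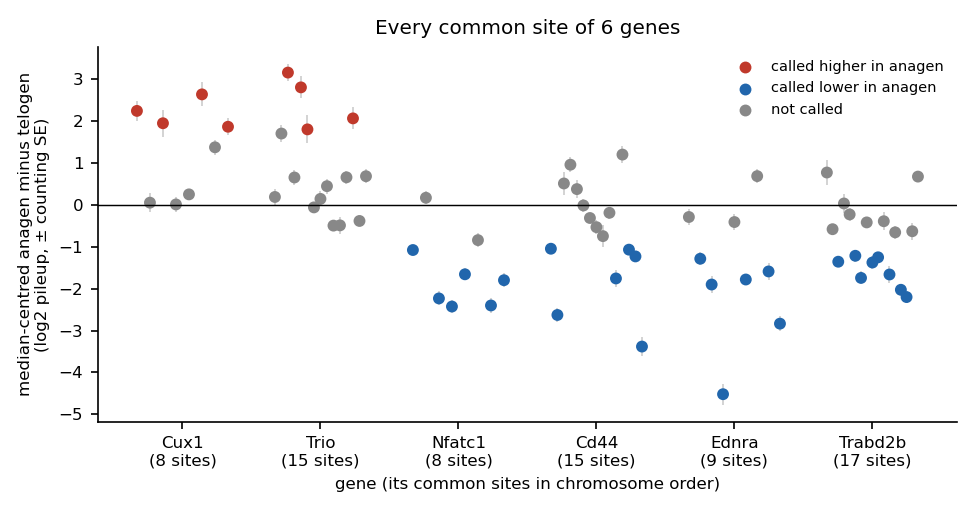
Every common site of 6 genes, in chromosome order within each gene, by its median-centred difference (anagen minus telogen, log2 pileup) with the counting standard error as a bar. All 8 sites of Cux1 lie above 0, Trio holds 4 called higher among 15, and Nfatc1, Ednra, Cd44 and Trabd2b hold 6, 6, 6 and 8 sites called lower.

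Genes were then grouped by role. Of the 29725 common sites assigned to a gene, 2.72% were called higher and 8.92% lower in anagen, and the counts of each list are read against these shares. The lists were written with earlier results of these data known and share members, so they are a description and not independent evidence. Every member of every list was found in the RefSeq table.

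Bulge stem cell genes were lower in anagen at 31 of 144 common sites (21.5%) and higher at 3 (2.08%). On centred values alone, 31 were lower and 20 higher, where 9.47% and 11.5% of all common sites were. Sites were found at 20 of the 22 genes, 16 of which had a lower site. Near Nfib, a nuclear factor of bulge cells, a site 5.91 kb from the gene had 2.43 and 1.80 FPM in basal and suprabasal TACs, against 19.4 and 14.2 in bulge and hair germ. At the end of Sfrp1, a secreted WNT inhibitor, a site had 2.73 and 1.34 in the TAC lists, against 15.0 and 14.6 in the telogen lists. The site that holds the printed Foxc1 promoter, a forkhead factor that keeps bulge cells quiescent, had 2.69 and 1.36 in the TAC lists, against 11.3 and 9.41 in the telogen lists.

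Not every bulge gene went that way. Near Sox9, needed for bulge stem cells, a site 99.0 kb away had 5.78 and 3.95 FPM in basal and suprabasal TACs, against 2.29 and 1.09 in bulge and hair germ, while the site at the gene end had 1.95 and 1.25 in the TAC lists, against 5.94 and 6.79 in the telogen lists. Foxp1, a forkhead factor of the bulge, had 2 sites higher and 2 lower. Tbx1 and Fgf18 had common sites but no call, and Krt15 and Postn had no common site. Without Cd34 and Lgr5, whose products or reporter served in the gates, 28 of 134 sites (20.9%) were lower.

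Basal keratinocyte and adhesion genes had 19 of 93 sites lower (20.4%) and none higher, at 11 of 18 genes. On centred values alone, 19 were lower and 7 higher. In the site that holds the printed promoter of Col17a1, a hemidesmosome collagen, the level in FPM was 1.88 and 1.09 in basal and suprabasal TACs, against 6.11 and 6.06 in bulge and hair germ.

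A site inside Itga3, the integrin α3 gene, had 7.14 and 2.76 FPM in basal and suprabasal TACs, against 25.3 and 22.9 in bulge and hair germ. Near Trp63, the master factor of stratified epithelia, a site had 4.38 and 0.439 in the TAC lists, against 17.5 and 9.05 in the telogen lists. Suprabasal TACs were the lowest list at all 3 of these sites. They were also the lowest by median over all common sites (1.88 FPM) and over all lower sites (0.899 FPM). Without the genes of the gates and of the keratin 14 reporter, 18 of 73 sites (24.7%) were lower. With those genes kept but the suprabasal list left out, 14 of 93 sites (15.1%) were lower, against 9.57% of all sites at a gene.

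Matrix regulators, the transcription factors and signals of the hair bulb, had 10 of 96 sites higher in anagen (10.4%) and 8 lower (8.33%). On centred values alone, 25 were higher and 8 lower. Cux1 gave 4 of the 10. The higher count was 5 (5.21%) without the bulge list, against 2.14% of all sites at a gene. The lower count was 15 (15.6%) without the suprabasal list, against 9.57%. Inside Lef1, a nuclear effector of WNT signalling, a site had 4.80 and 6.62 FPM in basal and suprabasal TACs, against 2.16 and 1.36 in bulge and hair germ. Near Bambi, a BMP and TGF-beta pseudoreceptor, a site 7.43 kb from the gene had 6.03 and 5.14 in the TAC lists, against 2.24 and 1.90 in the telogen lists. Trps1, a GATA-type repressor, had 4 of 9 sites lower, among them one inside the gene with 0.908 and 0.376 in the TAC lists, against 5.53 and 8.41 in the telogen lists.

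Inner root sheath genes had 6 of 26 sites higher (23.1%) and 1 lower, but 1 of 18 higher and 1 lower among sites with a pileup of at least 20 in each list. Again 4 of the 6 lay at Cux1, and without it 2 of 18 sites (11.1%) were higher. One was the site with the Krt25 promoter, a keratin of the inner root sheath, with 2.95 and 2.84 FPM in basal and suprabasal TACs, against 1.16 and 0.905 in bulge and hair germ. The other was inside Tgm3, a transglutaminase of the inner root sheath, with 7.04 and 3.45 in the TAC lists, against 1.95 and 1.54 in the telogen lists. The lower site, 21.4 kb from Gata3, had 1.27 and 0.711 in the TAC lists, against 8.39 and 4.34 in the telogen lists, a difference of −2.67. Common sites were found at 8 of the 12 genes. Of hair shaft genes, 4 of 39 sites were higher (10.3%) and 3 lower (7.69%). Without the suprabasal or the hair germ list 6 were lower (15.4%), against 9.57% and 10.8% of all sites at a gene. The highest lay 51.0 kb from the hair shaft factor Foxq1, with 6.42 and 2.26 in the TAC lists, against 0.748 and 1.09 in the telogen lists. Sites inside S100a3 and 17.6 kb from Dsg4 were lower, with differences of −2.99 and −2.35.

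**Figure D4:**
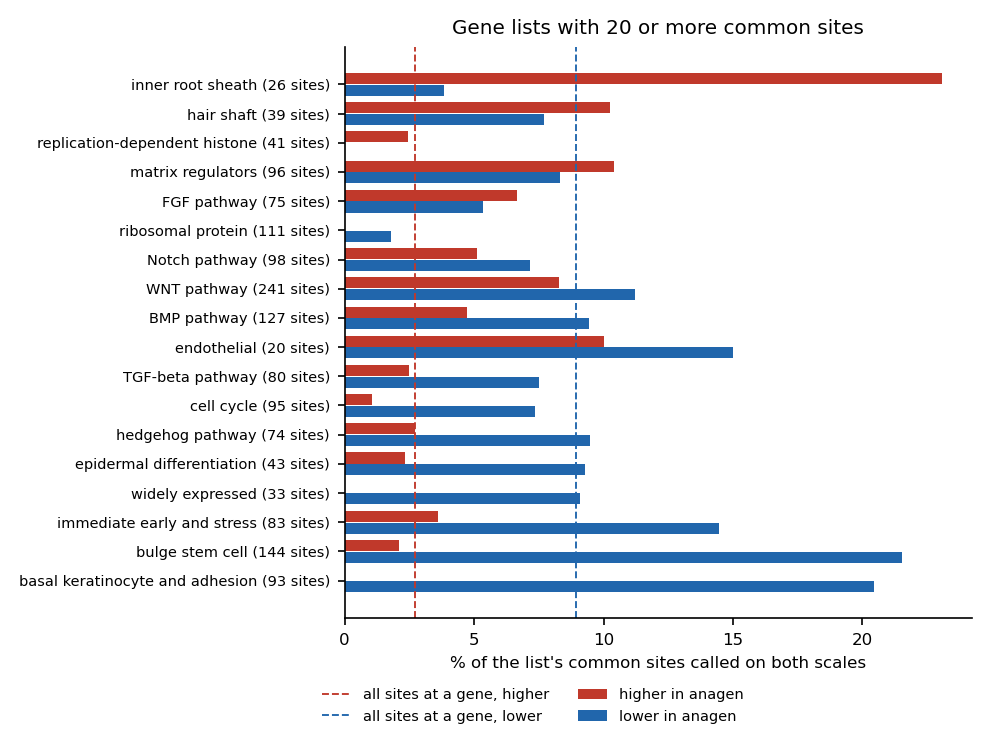
Share of each gene list's common sites called higher and called lower in anagen on both scales, for lists with 20 or more common sites, with dashed lines at the 2.72% and 8.92% of all sites at a gene. Inner root sheath genes reach 23.1% higher, and bulge stem cell and basal keratinocyte genes reach 21.5% and 20.4% lower.

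In the WNT pathway, 20 of 241 sites were higher (8.30%) and 27 lower (11.2%), and 8 of the 51 genes with sites had both. The higher count was 11 (4.56%) without the bulge list, against 2.14% of all sites at a gene. Among the receptors, a site near Fzd1 had 7.92 and 2.65 FPM in basal and suprabasal TACs, against 1.08 and 1.09 in bulge and hair germ. A site near Fzd2 went the other way, with 1.27 and 0.711 in the TAC lists, against 12.3 and 10.3 in the telogen lists. The ubiquitin ligase Znrf3, which removes Frizzled receptors, and the WNT target Axin2 each had a site higher in anagen, with differences of 1.81 and 1.60, and Axin2 also had 1 lower site among its 10.

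For BMP signalling, 6 of 127 sites were higher (4.72%) and 12 lower (9.45%). The higher count was 11 (8.66%) without the suprabasal or the hair germ list, against 6.75% and 4.94% of all sites at a gene. The ligand gene Bmp4 and the inhibitor gene Grem1, whose promoters are printed above, differed in direction. The Bmp4 site had 4.96 and 6.79 FPM in basal and suprabasal TACs, against 1.45 and 0.995 in bulge and hair germ, a difference of 2.27 (SE 0.26). The Grem1 site had 0.746 and 0.857 in the TAC lists, against 6.73 and 4.52 in the telogen lists, a difference of −2.79 (SE 0.22).

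The receptor genes Bmpr1a and Acvr1 each had a site higher in anagen inside the gene, by 1.34 and 1.81. Sites assigned to the ligand gene Bmp6 and the inhibitor genes Chrd and Sostdc1 were lower, by up to −3.30. The gene ends of Id1, Id2 and Id3, targets of BMP signalling, were not called, with centred differences of −0.25, −0.38 and −0.07.

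Hedgehog genes had 2 of 74 sites higher (2.70%) and 7 lower (9.46%), close to the shares of all sites at a gene. Inside Gli2, a transcriptional effector of the pathway, a site at chr1:118890641-118892386 had 5.19 and 4.41 FPM in basal and suprabasal TACs, against 0.499 and 0.995 in bulge and hair germ, a difference of 2.76 (SE 0.31). Ptch1, the receptor gene and a target of the pathway, had no call at any of 7 sites. Without the suprabasal list, 10 of the 74 sites (13.5%) were higher in basal TACs than in both telogen lists, against 6.75% of all sites at a gene. Without the hair germ list 4 were higher (5.41%), against 4.94%.

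Of Notch genes, 5 of 98 sites were higher (5.10%) and 7 lower (7.14%). The higher count was 2 without the bulge list and 9 without the hair germ list, and the lower count was 11 without the basal list. A site inside the receptor gene Notch2 had 6.55 and 5.35 FPM in basal and suprabasal TACs, against 0.873 and 1.09 in bulge and hair germ, whereas 4 of the 6 sites of Rbpj, the DNA-binding effector, were lower. FGF genes had 5 of 75 sites higher (6.67%) and 4 lower (5.33%), and TGF-beta genes 2 of 80 higher (2.50%) and 6 lower (7.50%). Without the suprabasal list, 11 FGF sites were higher (14.7%) and 10 lower (13.3%), against 6.75% and 9.57% of all sites at a gene. TGF-beta genes then had 5 higher (6.25%) and 3 lower (3.75%). Without the basal list, TGF-beta genes had 13 lower (16.2%) and FGF genes 3 higher and 7 lower, and the FGF higher count was 3 without the bulge list and 8 without the hair germ list.

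Immediate early and stress genes, which are known to respond to tissue handling, had 12 of 83 sites lower (14.5%) and 3 higher (3.61%). Of their genes, 7 had a lower site and 3 a higher one, and the part of handling was not tested. Near Jun, an AP-1 subunit, a site 15.3 kb away had 12.2 and 10.7 FPM in basal and suprabasal TACs, against 2.45 and 3.80 in bulge and hair germ. Near Atf3, a stress-induced factor, a site had 0.714 and 0.376 in the TAC lists, against 4.45 and 4.70 in the telogen lists.

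Cell cycle genes had 1 of 95 sites higher in anagen (1.05%) and 7 lower (7.37%), both below the shares of all sites at a gene. The higher site lay near Mycn, at 2.95 and 0.940 FPM in basal and suprabasal TACs, against 0.582 and 0.905 in bulge and hair germ. Near Ccnd1, the cyclin D1 gene, a site had 4.61 and 2.67 in the TAC lists, against 21.4 and 16.1 in the telogen lists. Of the 8 sites at Myc, 3 were lower. Replication-dependent histone genes had 1 of 41 sites higher and none lower, ribosomal protein genes 2 of 111 lower and none higher, and widely expressed genes 3 of 33 lower and none higher.

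Epidermal differentiation genes had 1 of 43 sites higher and 4 lower, among them the end of Krt6a, a stress keratin, with 1.46 and 0.418 FPM in basal and suprabasal TACs, against 9.64 and 6.15 in bulge and hair germ. Among markers of other cell types, melanocyte (9 sites), dermal (10) and immune genes (5) had no call. Endothelial genes had 2 of 20 sites higher, both at Egfl7, and 3 lower, and sebaceous gland and Merkel cell genes had 1 lower site each, at Plin2 and Piezo2. Over all peaks and not only common sites, no list held a peak at Tyr or Krt20, and the immune markers Cd3e and Cd74 had peaks in both anagen lists and in no telogen list. Only 1 of 5 immune markers had common sites, with a summed FPM of 8.50 and 4.18 in basal and suprabasal TACs, against 4.90 and 6.24 in bulge and hair germ. For 3 of 6 melanocyte markers the sum was 8.05 and 8.46 in the TAC lists, against 12.1 and 14.0 in the telogen lists. For 3 of 5 endothelial markers it was 22.1 and 15.9 in the TAC lists, against 38.3 and 47.5 in the telogen lists. These sums are in FPM without centring and carry the general shift of −0.84. The part of such cells in the results was not tested. As a check of the labels over all peaks, 6 matrix markers had 69 and 93 sites in basal and suprabasal TACs, against 32 and 40 in bulge and hair germ, and 8 bulge markers had 70 and 61 in the TAC lists, against 100 and 80 in the telogen lists. The lists differ in length, with 75637 and 72137 peaks in the TAC lists, against 62320 and 56536 in the telogen lists. At common sites the summed FPM of the matrix markers was 90.0 and 87.1 in the TAC lists, against 106 and 116 in the telogen lists. This sum was not centred either, and the median site was 1.79-fold lower in anagen. The 2 hair germ markers had 26 and 20 sites in the TAC lists, against bulge and hair germ counts of 33 and 27, so they did not set the hair germ list above the bulge list. The bulge markers include Cd34 and Lgr5, and the hair germ markers are Lgr5 and the P-cadherin gene Cdh3. Their products or reporter served in the gates, so this check is partly set by the sort.

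These list counts depend on the measure. The fold enrichment shares here need the call before and after centring, unlike the counts without centring given above. Under fold enrichment, 0.713% of all sites at a gene were called higher and 1.84% lower. The shares were 2.78% lower for bulge stem cell genes and 1.08% lower for basal keratinocyte genes. Matrix regulators then had 2 of 96 sites higher (2.08%) and 6 lower (6.25%). Inner root sheath genes had 1 of 26 higher (3.85%) and 2 lower (7.69%), so that both had more sites lower than higher, on few sites. WNT genes had 4 sites called each way under fold enrichment. With sites at gene ends left out, 19.5% of bulge stem cell sites and 20.3% of basal keratinocyte sites were lower, against 12.3% of all. With a pileup of at least 20 in each list, 0.868% of all sites at a gene were higher. The higher count was then 1 of 18 for inner root sheath genes (5.56%), 4 of 72 for matrix regulators (5.56%), 5 of 186 for WNT genes (2.69%) and 2 of 57 for FGF genes (3.51%). In the lists with 5 calls or fewer in a direction, leaving out 1 population often moved the count by over 1.5 times. The share over all sites at a gene moved as well. Bulge stem cell genes had 12 higher sites (8.33%) without the hair germ, against 3 with it, where 4.94% of all were higher. Cell cycle genes had 5 higher sites (5.26%) without suprabasal TACs, against 1 with them, where 6.75% of all were higher.

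A panel of follicle genes was taken whatever its values, and 29 of 30 had a common site. At the gene ends, where the promoter or the last exon lies, Lhx2, a factor that maintains bulge stem cells, was lower in anagen, with 0.811 and 0.794 FPM in basal and suprabasal TACs, against 3.62 and 3.17 in bulge and hair germ. The end of Krt5 was not called, because its basal TAC value of 8.66 and suprabasal value of 2.30 stood against 12.3 and 9.77 in bulge and hair germ, a difference of −1.30 that did not reach 2-fold after centring.

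The nearest gene-end sites of Lef1, Msx1, Msx2, Hoxc13, Gli1, Gli2, Cdh3, Ptch1 and Cux1 were not called either. Of these, Msx1 was nearest to equal in FPM, at 6.55 and 5.62 FPM in basal and suprabasal TACs, against 6.40 and 6.24 in bulge and hair germ, while after centring Gli1, Lef1 and Cdh3 were nearest, at −0.02, −0.06 and −0.07, and Msx1 was at 0.74. Cd34, Lgr5 and Krt14 serve in the gates or reporters and are given only as a check. The end of Krt14 had 4.70 and 0.940 in the TAC lists, against 8.89 and 11.8 in the telogen lists. The end of Cd34 had 2.37 and 0.564 in the TAC lists, against bulge and hair germ values of 7.19 and 3.53. Another site, 0.808 kb from Cd34, had 3.86 and 0.836 in the TAC lists, against 0.914 and 1.36 in the telogen lists, a centred difference of 1.49 with overlapping values that was not called. The end of Lgr5 had 5.09 and 2.57 in the TAC lists, against 6.61 and 7.78 in the telogen lists. A site 35.8 kb from Notch1 had the largest centred difference of its gene but was not called, since its basal TAC value of 1.39 lay under the hair germ value of 1.45, with 7.79 in suprabasal TACs and 0.540 in the bulge.

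The called sites shared their place. Sites within 1 kb of a gene end made up 37.1% of the common sites, but 10.5% of the sites higher in anagen and 14.4% of the lower ones. At gene ends 0.798% were higher and 3.67% lower, inside genes 4.09% and 11.1%, outside genes 3.78% and 14.0%, and with no gene within 100 kb 4.66% and 19.1%. The median distance to a gene end was 21.6 kb for higher and 23.3 kb for lower sites, against 6.32 kb for all common sites.

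The called sites also stood apart in level and in peak length. When the sites were split by mean level into 5 groups of 6284, the share called higher was, from the lowest group to the highest, 4.20%, 6.02%, 2.93%, 0.923% and 0.064%, and the share called lower 3.88%, 10.9%, 14.1%, 12.8% and 5.65%. A site enters the comparison only with a peak in all 4 lists, and the lowest FPM that gave a peak was 0.389 and 0.313 in basal and suprabasal TACs, against 0.416 and 0.543 in bulge and hair germ. Peak length is drawn from the same coverage as the pileup, so it is not independent of the calls. Median peak lengths at the higher sites were 1026 and 1117 bp in basal and suprabasal TACs, against 550.5 and 516.5 bp in bulge and hair germ. At the lower sites they were 813 and 650 bp in the TAC lists, against 1112 and 958 bp in the telogen lists.

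**Figure D5:**
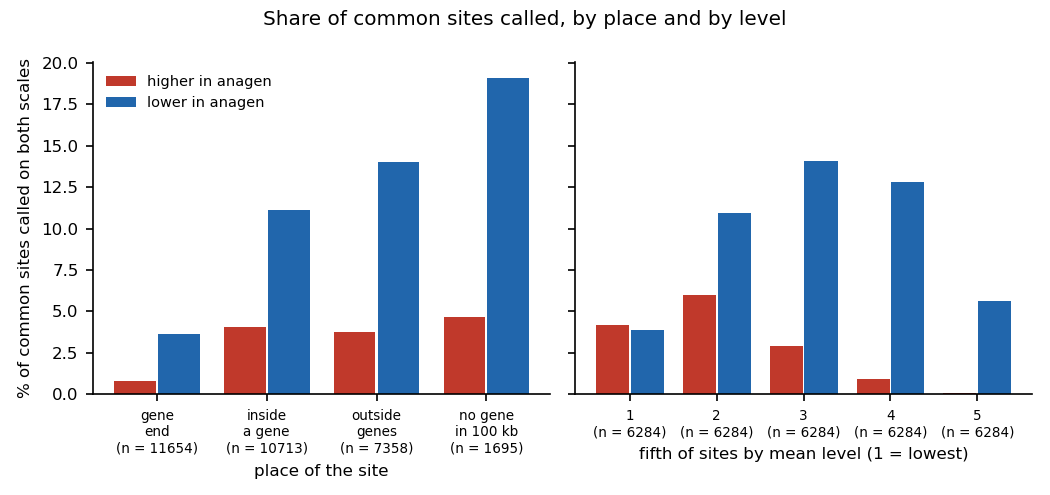
Share of common sites called higher and called lower in anagen on both scales, by place of the site (left) and by mean log2 level over the 4 lists in 5 groups of 6284 (right). Both shares are lowest at gene ends, and 0.064% of the sites of the highest group were higher in anagen.

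Neighbouring sites often carried the same call. For 9.91% of higher sites the nearest other common site was also higher, against 2.78% of all common sites with such a neighbour, and for lower sites the shares were 23.3% against 9.96%. A neighbour with the opposite call was found for 44 higher and 39 lower sites. On the X chromosome the median centred difference was −0.12 over 700 sites, against −0.04 on the autosomes.

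Promoter windows could be matched for 8438 common sites, of which 46 (0.545%) were higher and 270 (3.2%) lower in anagen. The 10 motifs searched on both strands of the 250 upstream bases were AP-1 (TGACTCA), CRE (TGACGTCA), the CCAAT box (CCAAT), TCF/LEF (CTTTGAA), E2F (TTTGGCGC, TTTCCCGC or TTTGCCGC), RUNX (TGTGGT), the E-box (CACGTG), ETS (CTTCCGG), NFI (by its palindromic site) and the GC box (GGGCGG). The letters of no motif contain those of another. The CCAAT box was found in 35.8% of the 53 promoters in higher sites and 36.2% of the 312 in lower sites, against 37.0% of the 10432 in all common sites and 35.6% of all 21045 promoters. AP-1 was found in 7.55% (4) of promoters in higher sites and 8.01% (25) in lower sites, against 2.96% in all common sites and 4.09% of all promoters. ETS was found in 3.77% of promoters in higher sites and 6.73% in lower sites, against 15.3% in all common sites and 9.08% of all promoters. A match is a description of the letters and not a binding site. Of the printed promoters, Grem1 holds 3 GC boxes and 1 CCAAT box, Krt25 a single CCAAT box, and none holds AP-1.

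Common sites within 10 kb were found for 486 of 1005 miRNA hairpins, 6 of them near a site higher in anagen and 39 near a lower one. Of all common sites 2.83% were higher and 9.47% lower, and neither count of hairpins stands above that share. The mature sequences of the clusters named here, from RefSeq (GRCm38.p6), are shown for their seeds, bases 2 to 8, in capitals.
miR-130b-3p: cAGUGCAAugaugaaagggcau
let-7c-5p: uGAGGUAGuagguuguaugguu
let-7e-5p: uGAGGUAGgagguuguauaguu
miR-99a-5p: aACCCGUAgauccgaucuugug
miR-125a-5p: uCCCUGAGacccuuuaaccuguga
miR-29a-3p: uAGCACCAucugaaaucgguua
miR-29b-3p: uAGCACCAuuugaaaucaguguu
The site beside Mir130b and Mir301b (chr16:17124514-17125653) was higher, with 2.66 and 1.63 FPM in basal and suprabasal TACs, against 0.457 and 0.814 in bulge and hair germ. These telogen values rest on 11 and 9 fragments (SE of the difference 0.34). The site 2.49 kb from let-7c-1 and 3.24 kb from Mir99a was lower, with 1.30 and 0.627 in the TAC lists, against 8.06 and 6.33 in the telogen lists. A site by Mirlet7e and Mir125a, whose let-7e shares its seed with let-7c, had 3.18 and 0.940 in the TAC lists, against 5.98 and 7.33 in the telogen lists. The site by Mir29a and Mir29b-1, which share a seed, had 3.34 and 0.711 in the TAC lists, against 8.48 and 6.51 in the telogen lists.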

How the data were processed

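ATAC-seq was done on 8 samples, and the authors deposited 1 peak list per population, called on both samples pooled. Per the file headers, the caller was MACS2 2.1.1.20160309, run on fragments from both read ends without a control, with duplicates retained, a q-value cutoff of 0.05 and local background taken over 10 kb. The tools named in the submitters' processing notes include Bowtie2 2.2.9 and Picard, and the build is mm10. No source used here says whether reads were shifted for the transposase. The deposited pileup is an unscaled coverage signal, and the deposited fold enrichment is a ratio to the local background. The deposited −log10 q-value column has a damaged name in the files and was read by its place in the caller's output. The header alignment names of both telogen lists carry the word New, whose meaning the sources do not state.

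Peaks of chromosomes M and Y were left out. The merge was checked against bedtools and the calls on simulated counts. The value is log2 of FPM, the highest pileup per 1000000 header fragments, and each site was given to the nearest of 21631 protein-coding RefSeq genes within 100 kb. Calls need separated pairs and at least 2-fold, in FPM and after median centring. The members and gene lists were chosen with earlier results of these data known. Named were the 12 largest differences each way with a pileup of at least 20 in each list, 10 genes each way by net called sites, up to 4 genes per list and direction, and a fixed panel. Sequences, promoters and miRNAs printed were chosen after their values were seen. Genome sequence of distal sites was not used here. Python 3.11.15, numpy 2.4.6, pandas 2.3.3 and scipy 1.17.1 were used.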

Additional observations from a re-analysis of the deposited data

How the results depend on the processing

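Counts in FPM moved with the scaling, the measure and the level of the sites kept, and no cause was tested. On median-centred values the median difference was −0.042, with 8402 sites separated higher, 10165 separated lower, 3605 called higher and 2976 called lower, and on quantile-normalised values −0.0052, 8624, 8987, 3079 and 2958. Under fold enrichment the median was −0.27, with 2985 sites separated higher, 248 called higher and 1825 called lower. With a −log10 q of at least 10 in each list, which keeps 22663 sites, the median was −0.91, with 757 separated and 233 called higher, and with a pileup of at least 20 it was −0.95, with 735 and 227. Over the 15710 sites of higher mean level it was −1.01, with 390 separated and 133 called higher and 12872 separated and 7773 called lower. At 1.5-fold, 1481 sites were called higher and 18252 lower. Without the basal TAC list the median was −1.15. Without the suprabasal TAC list it was −0.52, with 6374 separated and 2222 called higher and 7402 called lower. Without the bulge list it was −0.86. Without the hair germ list it was −0.83, with 3831 separated and 1614 called higher. Summed pileup, sites with 1 peak in each list, sites up to 3000 bp and autosomes alone kept all counts within 1.5 times.

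No difference at the 24 named sites changed sign, in 317 recomputed values, but most of these settings could not change it. Settings that only drop sites leave a value as it is. Leaving out 1 list cannot reverse pairs chosen as separated, and centring was part of the call. Of the settings that measure a site anew, quantile normalisation and summed pileup kept all 24 calls. Fold enrichment kept 13, and 11, all higher in anagen, lost the 2-fold separation. A list's median relative to all sites at a gene changed side under fold enrichment for bulge stem cell (0.12), matrix regulator (−0.068), inner root sheath (−0.031), hair shaft (−0.12), TGF-beta (−0.032), hedgehog (−0.066), cell cycle (−0.0029), immediate early (0.19), basal keratinocyte (0.051), widely expressed (0.059), endothelial (−0.15), sebaceous (−0.12) and histone genes (−0.022). It did so on quantile-normalised values for melanocyte (−0.012), immune (−0.052) and ribosomal protein genes (0.040), and within 20 kb for immune genes (−0.16). No paired analysis was possible because both samples of a population are pooled in 1 list. Alternatives on gene list shares were chosen after seeing the data.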
